A study of Sus scrofa with 12 samples.

Results

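The genes that carry the insulin signal from its receptor to glucose uptake are described here in pigs of the Italian Large White breed whose *Semimembranosus* muscle held high or low intramuscular fat (IMF). The genes were taken by symbol from a list of 10: INSR, IRS1, IRS2, PIK3R1, PIK3CA, AKT1, AKT2, TBC1D4, GRB10 and GRB14. A pig Ensembl gene identifier was paired with 9 of the 10 symbols, and AKT1, which was paired with none, was skipped. All 9 had counts in every pig and passed the filter on low counts, so they are 9 of the 25880 genes in the count table and 9 of the 14262 genes tested.

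Poly(A) RNA from the muscle of 12 pigs was sequenced, with pigs 1 to 6 labelled high IMF and pigs 7 to 12 labelled low IMF, to ask which transcripts differ with the fat content of the muscle. All were of the same breed and the same labelled weight class, had been kept in the same environment on the same diet, and were sampled in a commercial slaughterhouse. Each group held 3 females and 3 males by the labels, aged 234 to 244 days in the high IMF group and 229 to 249 days in the low IMF group. The males had been castrated. The pigs had been picked as extremes of fat content from a larger population, and no pig received a treatment.

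Insulin binds its receptor, a tyrosine kinase that then phosphorylates docking proteins, the insulin receptor substrates. These recruit phosphatidylinositol 3-kinase, whose lipid product brings the kinase Akt to the membrane, and Akt in turn phosphorylates TBC1D4, releasing the brake on the transport of the glucose transporter GLUT4 to the muscle surface. The pathway also restrains the FOXO transcription factors and is held in check by adaptor proteins that bind the receptor. Skeletal muscle is a main site of insulin-stimulated glucose disposal. The counts measure transcripts, not the phosphorylation through which the pathway acts.

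The upstream windows shown here are those of INSR and AKT2, the genes among the 9 with an unadjusted p at or under 0.05, and of IRS2, which varied together with both across pigs. Whether these windows are promoters used in muscle was not tested. They were chosen after the values were seen. Each is the 250 bases before the RefSeq gene start in Sscrofa11.1, read 5′ to 3′ on the gene's strand, with capitals for the forkhead core GTAAACA and the GC box GGGCGG on either strand. Those of INSR (chr2:71796959-71797208, + strand), IRS2 (chr11:76654640-76654889, − strand) and AKT2 (chr6:48620473-48620722, − strand) read as follows.
INSR: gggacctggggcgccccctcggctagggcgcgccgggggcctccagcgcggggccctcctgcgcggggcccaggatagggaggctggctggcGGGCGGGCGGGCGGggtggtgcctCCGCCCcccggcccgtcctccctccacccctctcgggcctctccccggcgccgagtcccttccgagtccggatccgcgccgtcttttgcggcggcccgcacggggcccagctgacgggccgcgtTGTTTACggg
IRS2: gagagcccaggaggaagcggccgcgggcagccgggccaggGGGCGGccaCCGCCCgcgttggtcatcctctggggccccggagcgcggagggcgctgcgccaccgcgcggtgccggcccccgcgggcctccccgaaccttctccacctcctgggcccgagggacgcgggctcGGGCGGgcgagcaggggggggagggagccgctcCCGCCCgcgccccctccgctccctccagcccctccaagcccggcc
AKT2: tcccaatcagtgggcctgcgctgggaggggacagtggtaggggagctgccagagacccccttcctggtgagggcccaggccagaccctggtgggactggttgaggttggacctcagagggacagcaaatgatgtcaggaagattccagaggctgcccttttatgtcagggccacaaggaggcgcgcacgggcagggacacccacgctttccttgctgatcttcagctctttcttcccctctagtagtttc
The INSR window was 80% G or C and held 1 forkhead core, written TGTTTAC on this strand, close to its 3′ end, and 4 GC boxes, some of which overlap in one run of capitals. The IRS2 window was 82% G or C with 4 GC boxes and 0 forkhead cores. That of AKT2 was 60% G or C and held 0 of either. Among 20664 protein-coding gene windows of the same length, 2.31% held the forkhead core and 44.4% the GC box, and the median GC content was 57.2%. These matches describe letters, and binding was not measured.

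The whole data set sets the scale for what follows. Totals ran from 131048805 to 178013997 counts per pig, and the common biological coefficient of variation between pigs was 0.332, far above counting error. The muscle fibre genes ACTA1, CKM, TNNT3 and TNNT1, the 4 of 8 fibre markers with an identifier, summed to between 29769 and 58532 CPM (counts scaled to a common library size), while adipocyte markers summed to between 115 and 339 CPM. In 6 of the 12 pigs (2 with high and 4 with low IMF) the counts of Y chromosome genes went against the labelled sex. These counts were 3734 to 5601 in pigs 3, 4 and 6 (high IMF) and 9, 10 and 11 (low IMF), and at most 6 in the others. Each group thus held as many pigs with such counts as labelled males. Whether the pigs that went against their labelled sex also differ from their IMF label was not tested. Results are therefore also given without pigs 3, 5, 7, 8, 9 and 10, which leaves 4 high and 2 low IMF pigs. With edgeR's quasi-likelihood test 0 of 14262 genes (0%) passed at an adjusted p of 0.05, while 1486 genes (10.4%) passed at an unadjusted p of 0.05, of which 767 (5.38% of those tested) were higher in low IMF pigs.

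Levels of the 9 genes spanned a wide range within the pathway. As CPM per kb of merged RefSeq exon, a scale that takes account of annotated length, the means over the 12 pigs were 18.3 ± 4.30 (SD) for IRS1, 14.0 ± 4.20 for TBC1D4, 8.91 ± 1.26 for AKT2, 8.33 ± 0.779 for PIK3CA, 4.33 ± 1.08 for INSR, 3.61 ± 0.766 for PIK3R1, 2.88 ± 0.470 for GRB10, 0.925 ± 0.394 for IRS2 and 0.437 ± 0.173 for GRB14. The transcript of the substrate IRS1 was therefore the most abundant per length, and the other substrate, IRS2, and the inhibitor GRB14 were the least. Neighbours in this order did not all differ beyond their spread over pigs. The within-pig difference in log2 level was 0.42 ± 0.44 (SD) between IRS1 and TBC1D4, 0.090 ± 0.24 between AKT2 and PIK3CA, 0.25 ± 0.44 between INSR and PIK3R1, and 0.31 ± 0.34 between PIK3R1 and GRB10, so these neighbours differed by less than 1 SD. Clear steps lay between PIK3CA and INSR (0.98 ± 0.40) and between GRB10 and IRS2 (1.73 ± 0.55), each in the same direction in 12 of 12 pigs. The steps from TBC1D4 to AKT2 (0.60 ± 0.45, 11 of 12 pigs) and from IRS2 to GRB14 (1.08 ± 1.01, 10 of 12 pigs) were just above their SD. Exon lengths are those of RefSeq while reads were counted on Ensembl genes, which limits how finely genes of near level can be ranked. The exons of all annotated transcripts of a gene were merged, to lengths from 2.507 kb for GRB14 to 17.018 kb for PIK3R1. A length unlike that of the transcripts in muscle would shift a gene alike in all 12 pigs, so the larger steps share this limit.

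**Figure D1:**
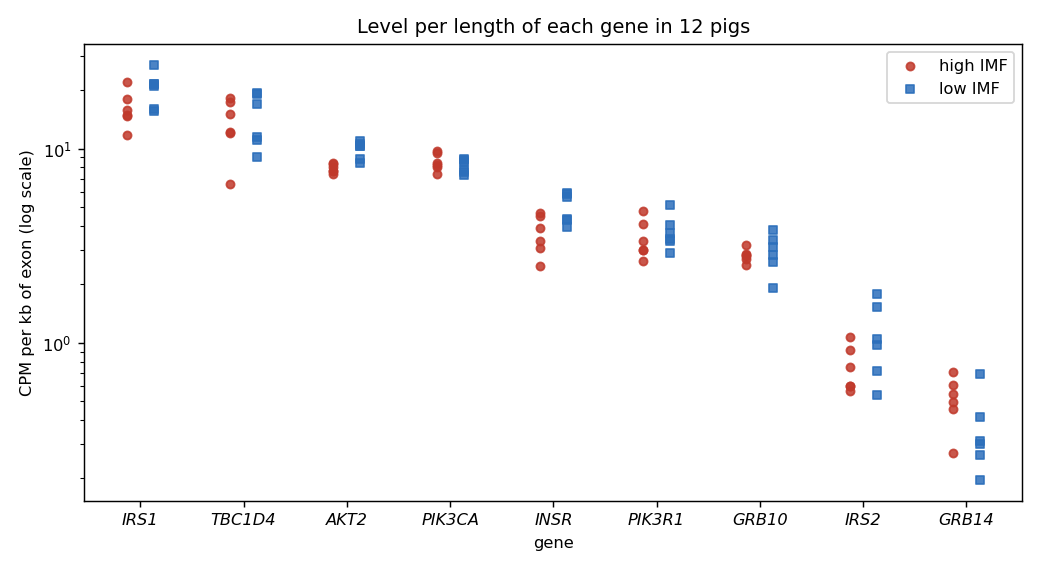
Level of each gene per length in the 12 pigs, as CPM per kb of exon on a log scale (y axis), with genes in order of their mean (x axis). Circles are high IMF and squares low IMF pigs, and the points of IRS1 and TBC1D4 overlap, while all 12 points of IRS2 lie below those of GRB10.

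The genes also differed in how much they varied between pigs. The coefficient of variation of the CPM over the 12 pigs was 42.6% for IRS2, 39.5% for GRB14, 29.99% for TBC1D4, 24.97% for INSR, 23.5% for IRS1 and 21.2% for PIK3R1. It was lower for GRB10 (16.3%), AKT2 (14.2%) and the catalytic subunit PIK3CA (9.35%). GRB14 was the gene with the fewest counts, between 82 and 300 per pig.

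Between the groups, INSR and AKT2 were the 2 of the 9 genes with an unadjusted p at or under 0.05 (22.2%, beside 10.4% of all genes tested), both with higher levels in low IMF pigs, where 5.38% of all genes met the same rule. None of the 9 passed after adjustment over all genes with edgeR's quasi-likelihood test, as for all genes (0%), whereas the Wald test of DESeq2 after independent filtering, the kind of test that the study used, called AKT2 alone among the 9. That test called 101 of 16685 genes (0.605%). The log2 fold change (log2FC, low over high IMF) was positive for 7 of the 9 (77.8%), beside 48.4% of all genes, with a median of 0.11 beside -0.0083 over all genes. Values of the groups overlapped for all 9 genes, and they did not overlap for 0.659% of all genes. Without the 6 pigs named before, 4 of the 9 log2FCs were positive (44.4%, beside 48.5% of all genes), with a median of -0.10, and 1 gene, TBC1D4, had an unadjusted p at or under 0.05, as had 4.05% of all genes, and was lower in low IMF pigs. The direction over the 9 genes was therefore not seen in the 4 high and 2 low IMF pigs that remained. No other choice of 4 and 2 pigs was compared, so this change cannot be credited to the Y chromosome mismatch. With 9 genes each such share moves in large steps, and several of the genes varied together across pigs. The genes were also chosen with earlier results of these data known, so the shares are no independent test.

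INSR (ENSSSCG00000013566, chr2:71797209-71939923, + strand) encodes the insulin receptor. Its level was 23.5, 34.2 and 43.9 CPM in the lowest, median and highest high IMF pig, and 37.2, 47.0 and 55.7 CPM in low IMF pigs, after TMM normalization. The groups overlapped, with 3 low IMF pigs (7, 8 and 12) above every high IMF pig and 4 high IMF pigs below every low IMF pig. Group means were 34.6 ± 8.00 CPM (SD, n = 6) in high and 47.1 ± 8.40 CPM (SD, n = 6) in low IMF pigs. The log2FC was 0.45 (SE 0.16), a level 36.2% higher. By edgeR's quasi-likelihood test p was 0.0166 and 0.427 after adjustment, and an exact two-sided permutation test over all arrangements of the pigs gave p = 0.0325. Leaving out single pigs gave log2FCs between 0.36 and 0.53. Without the 6 pigs whose Y chromosome counts went against their labels, the log2FC was 0.25, with an adjusted p of 0.998 from edgeR.

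IRS1 (ENSSSCG00000025729, chr15:128245846-128307321, − strand) encodes a docking protein of the receptor, the main one in muscle. The high IMF pigs ran from 74.2 to 139 CPM with a median of 97.7 CPM, and the low IMF pigs from 99.1 to 172 CPM with a median of 135 CPM. Pig 9 of the low IMF group was the highest of all, and pig 2 of the high IMF group was above the other 5 low IMF pigs. Means were 103 ± 22.2 and 129.8 ± 26.7 CPM (SD, n = 6 each). The log2FC of 0.34 (SE 0.16) missed the threshold before adjustment in edgeR's quasi-likelihood test (p = 0.0588, adjusted p = 0.492), and an exact permutation test gave p = 0.0844. It was 0.0072 without the 6 pigs.

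IRS2 (ENSSSCG00000034763, chr11:76626158-76654639, − strand), the other docking protein of the pathway found in muscle, was at 3.66, 4.38 and 6.96 CPM in the lowest, median and highest high IMF pig and 3.49, 6.51 and 11.5 CPM in low IMF pigs. The 2 pigs with the highest levels, 8 and 7, were both low IMF, and so was the pig with the lowest level, pig 11, so that the low IMF group spanned the high IMF group. The log2FC was 0.54 (SE 0.27), with an unadjusted p of 0.0670 and an adjusted p of 0.502 by edgeR's quasi-likelihood test, and an exact permutation test gave p = 0.160. The sign depended on the pigs taken, since the log2FC was -0.41 without the 6 pigs, which include pigs 7 and 8.

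Phosphatidylinositol 3-kinase is made of a regulatory and a catalytic subunit. PIK3R1 (ENSSSCG00000016958, chr16:46434757-46523626, + strand), the regulatory subunit that binds the docking proteins, ran from 45.1 to 80.8 CPM (median 54.1) in high IMF and from 49.0 to 87.6 CPM (median 60.1) in low IMF pigs. One pig of each group, pig 6 and pig 11, stood highest, and the rest of the groups overlapped throughout. The log2FC was 0.11 (SE 0.16, adjusted p = 0.859, edgeR's quasi-likelihood test) and became -0.012 without pig 11. PIK3CA (ENSSSCG00000030413, chr13:117193935-117282151, + strand), a catalytic subunit, ran from 86.1 to 113 CPM (median 97.2) in high IMF and from 85.1 to 103 CPM (median 94.8) in low IMF pigs. Its log2FC of -0.076 (SE 0.092, adjusted p = 0.810, edgeR's quasi-likelihood test) was smaller in size than its SE. In RefSeq this gene overlaps LOC110256340 on the same strand, so reads from the overlap cannot be assigned with certainty.

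AKT2 (ENSSSCG00000002989, chr6:48555785-48620472, − strand), the Akt isoform tied most closely to glucose uptake in muscle and fat, was 62.4, 66.4 and 70.9 CPM in the lowest, median and highest high IMF pig and 70.7, 86.8 and 92.1 CPM in low IMF pigs. High IMF pigs lay close together, and 5 of the 6 low IMF pigs were above all of them, pig 11 at 70.7 CPM being just below pig 1 at 70.9 CPM. Means were 66.8 ± 3.37 CPM (SD, n = 6) and 83.3 ± 8.60 CPM (SD, n = 6). The log2FC was 0.32 (SE 0.087). By edgeR's quasi-likelihood test p was 0.00259 and 0.367 after adjustment, and an exact permutation test gave p = 0.00433. The adjusted p of DESeq2's Wald test was 0.0433 over all genes with a count, after independent filtering, and 0.0406 over the genes tested here. Both log2FCs (0.33 and 0.32) were under 0.58, the smallest log2FC counted as differential expression in the methods for these data. The direction held whichever single pig was left out (0.29 to 0.36). Without the 6 pigs the log2FC was 0.094 (adjusted p = 0.998, edgeR's quasi-likelihood test), the 2 low IMF pigs that remained, 11 and 12, being those with the lowest AKT2 of their group.

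TBC1D4 (ENSSSCG00000009464, chr11:47543808-47760928, − strand), also known as AS160, is the Akt target that holds GLUT4 inside the cell. Its level was 53.7, 111 and 147 CPM in the lowest, median and highest high IMF pig and 73.5, 115 and 157 CPM in low IMF pigs. Each group thus held pigs with high and pigs with low levels, pig 5 being the lowest of all and pigs 8 and 10 the highest. The log2FC was 0.095 (SE 0.25, adjusted p = 0.923, edgeR's quasi-likelihood test). It was -0.046 without pig 5, and -0.49 without the 6 pigs, at an unadjusted p of 0.0465 and an adjusted p of 0.998 by edgeR.

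GRB10 and GRB14 encode related adaptors that bind the active receptor and inhibit it. GRB10 (ENSSSCG00000015631, chr9:136580363-136742552, − strand) ran from 32.2 to 40.7 CPM (median 36.0) in high IMF and from 24.4 to 48.7 CPM (median 37.9) in low IMF pigs. The low IMF pigs were spread more widely, with pig 7 the highest and pig 12 the lowest of all. The log2FC was 0.059 (SE 0.14, adjusted p = 0.912, edgeR's quasi-likelihood test), -0.024 without pig 7 and -0.15 without the 6 pigs. GRB14 (ENSSSCG00000015901, chr15:71119928-71247426, − strand) was 0.681, 1.30 and 1.77 CPM in the lowest, median and highest high IMF pig and 0.492, 0.768 and 1.73 CPM in low IMF pigs. All low IMF pigs except pig 11 lay below all high IMF pigs except pig 2. Its log2FC of -0.50 (SE 0.30) was the largest of the 9 in the direction of high IMF. The adjusted p was 0.592 by edgeR's quasi-likelihood test, and an exact permutation test gave p = 0.113. The log2FC was -0.10 once the 6 pigs were left out.

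**Figure D2:**
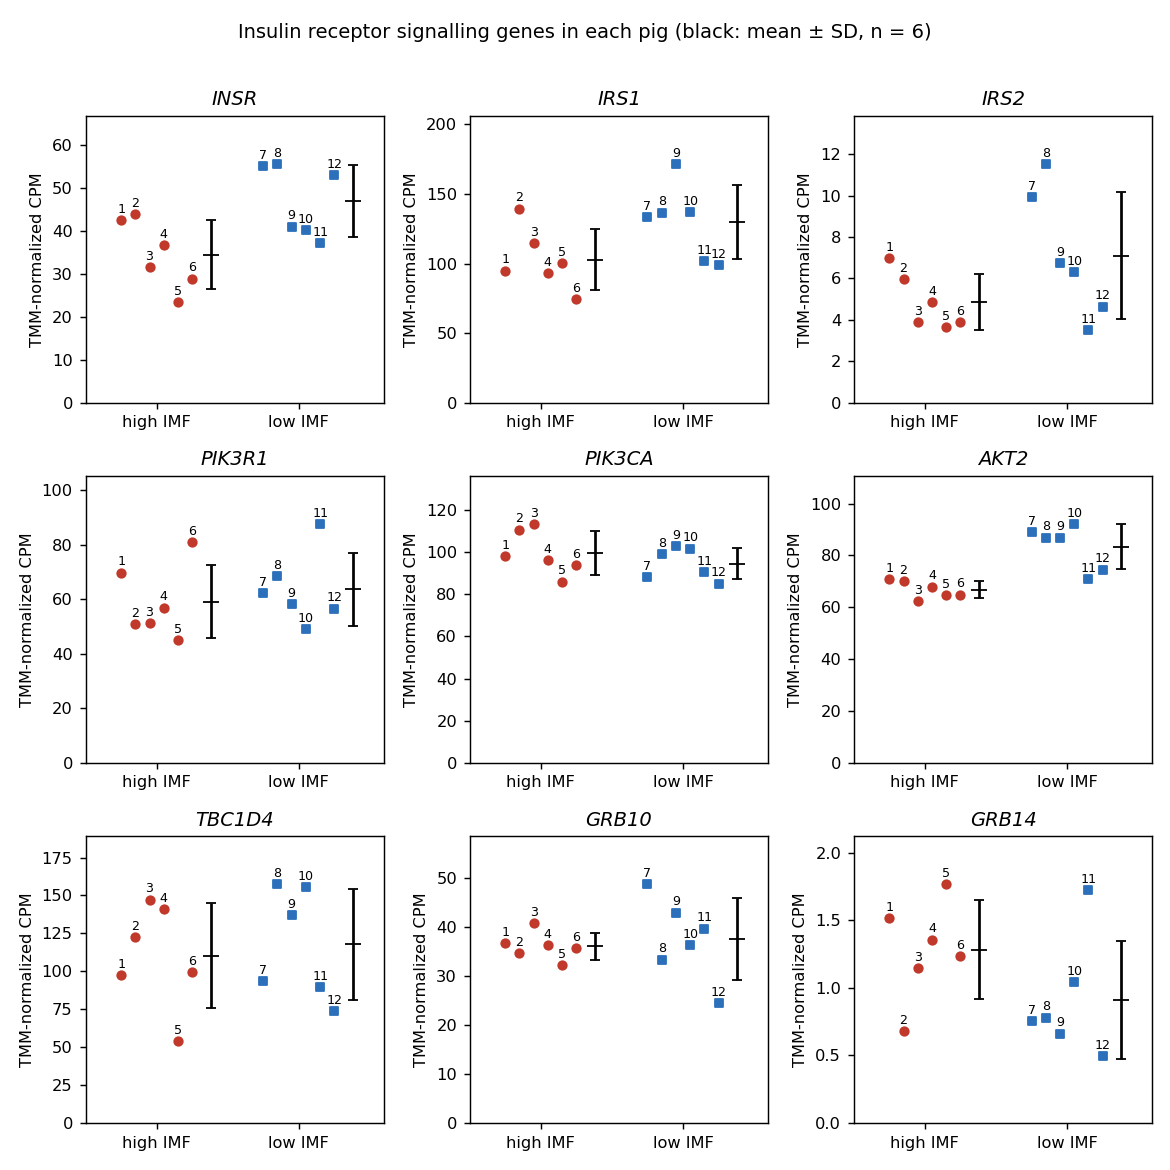
TMM-normalized CPM (y axis, from 0) of each gene in each numbered pig, by group (x axis), with circles for high IMF, squares for low IMF and black bars for the mean ± SD of 6 pigs. AKT2 of 5 low IMF pigs lies above all high IMF pigs, and every panel shows overlap between the groups.

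Within-pig ratios of counts do not depend on how libraries are scaled. The ratio of IRS1 to IRS2 counts ran from 11.8 to 29.4 over the pigs and differed by -0.13 (log2, low minus high IMF) between the groups (p = 0.643, exact permutation test). For PIK3R1 to PIK3CA the ratio ran from 0.452 to 0.966 and the difference was 0.18 (p = 0.377, exact permutation test). That of GRB10 to GRB14 ran from 18.2 to 64.5, with a difference of 0.59 towards more GRB10 in low IMF pigs (p = 0.0909, exact permutation test). After Benjamini-Hochberg adjustment over the 3 ratios, p was 0.643, 0.565 and 0.273 in the same order. No ratio passed the test of the groups.

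The rest of the pathway was described with a list of 59 further genes, of which 56 had an identifier and 55 were tested. At an unadjusted p at or under 0.05, 9 were higher in low IMF and 1 in high IMF pigs, together 10 of 55 (18.2%, beside 10.4% of all genes). None passed after adjustment over all genes, their smallest adjusted p being 0.420 by edgeR's quasi-likelihood test. The log2FC was positive for 38 of the 55 (69.1%, beside 48.4% of all genes) and its median was 0.11. The list was chosen with earlier results of these data known, so these shares and those of its parts below are no independent test. How far its genes varied together was not tested.

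Among adaptors and other proteins near the receptor, 3 of the 9 tested passed before adjustment, all higher in low IMF pigs, beside 5.38% of all genes. Among them, SH2B1, which binds and promotes the active receptor, had a log2FC of 0.36 (SE 0.13), and GRB2, the adaptor that links the receptor to Ras, one of 0.21 (SE 0.093). None of the 4 further PI3K subunits passed, beside 10.4% of all genes in either direction, and their median log2FC was 0.088. Of 10 kinases, 2 passed (20%, beside the same 10.4%). PDPK1, which phosphorylates Akt, was higher in low IMF pigs with a log2FC of 0.27 (SE 0.11). PRKCI, an atypical protein kinase C, was higher in high IMF pigs with a log2FC of -0.25 (SE 0.11).

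The targets of Akt and mTORC1 held 5 such genes among 12 tested, all with higher levels in low IMF pigs, beside 5.38% of all genes, and the median log2FC of the 12 was 0.18. FOXO1, a transcription factor that Akt keeps out of the nucleus, was 17.8 ± 4.17 CPM in high and 29.5 ± 11.8 CPM in low IMF pigs (SD, n = 6 each), a log2FC of 0.73 (SE 0.26). FOXO3, its relative, was 54.8 ± 15.2 and 79.6 ± 22.1 CPM (SD, n = 6 each), a log2FC of 0.54 (SE 0.21). The other 3 were TSC2, a brake on mTORC1 (0.42, SE 0.17), AKT1S1, another inhibitor of mTORC1 (0.33, SE 0.13), and GSK3A, the kinase that inhibits glycogen synthase (0.28, SE 0.089). In each of the 5 the groups overlapped.

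None of the 7 genes of GLUT4 transport met that threshold, beside 10.4% of all genes, with a median log2FC of 0.074. The transporter gene itself, SLC2A4, was 107 ± 19.3 CPM in high and 103 ± 23.2 CPM in low IMF pigs (SD, n = 6 each). Nor did any of the 13 brakes on the pathway that were tested, whose median log2FC was 0.0018. Lists this short can hold 0 such genes at the share of 10.4%, so they do not set these parts apart from the others. SOCS3, an inhibitor of cytokine and insulin signalling, had the log2FC of largest size in the list, -1.19 (SE 0.87, adjusted p = 0.657, edgeR's quasi-likelihood test), and its levels ran from 3.71 to 171 CPM in high and from 5.93 to 45.6 CPM in low IMF pigs. Without the 6 pigs whose Y chromosome counts went against their labels, 0 of the 55 genes passed before adjustment, while 32 had a positive log2FC (58.2%), with a median of 0.013. In that setting 4.05% of all genes passed and 48.5% had a positive log2FC.

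**Figure D3:**
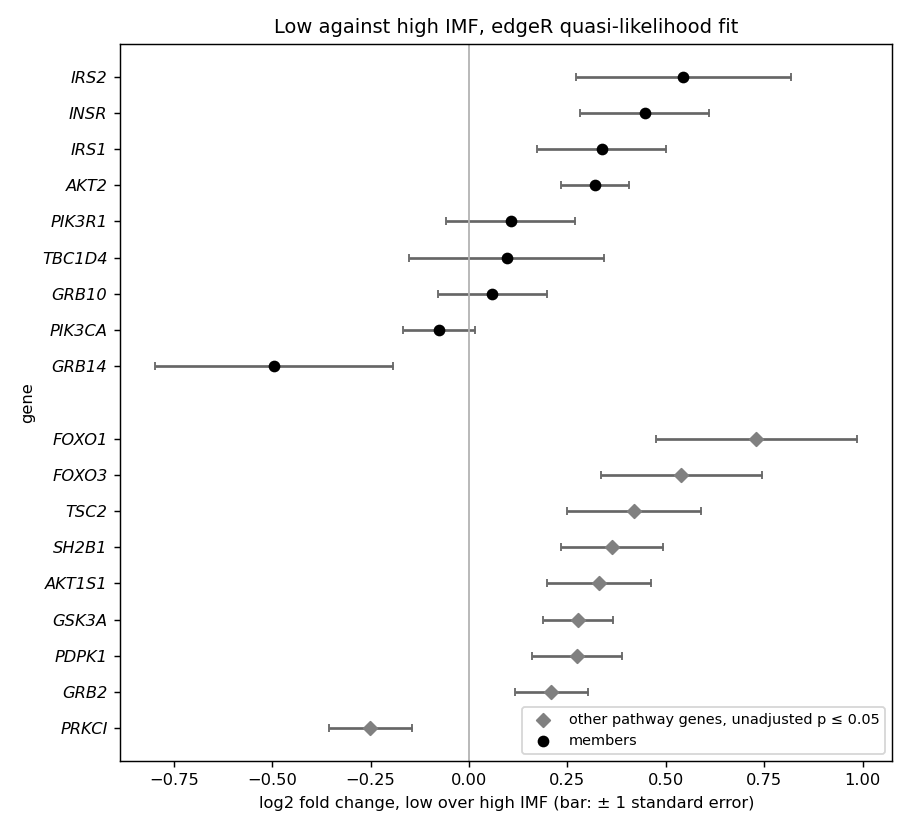
Log2FC, low over high IMF (x axis, bars ± 1 standard error), of the 9 genes and of 9 further pathway genes with an unadjusted p at or under 0.05 (y axis), from edgeR's quasi-likelihood test. INSR, IRS1, IRS2 and AKT2 lie between 0.32 and 0.54, and GRB14 lies at -0.50.

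Muscle pieces hold other cells beside fibres, and fewer cells of a type cannot be told apart from less RNA per cell in these samples. Endothelial markers, 4 of 5 measured, summed to 92.0 to 123 CPM in high and 95.3 to 159 CPM in low IMF pigs (p = 0.167, exact permutation test). Their log2FCs were 0.55 for CDH5 (unadjusted p = 0.00411, quasi-likelihood test), 0.16 for PECAM1, 0.095 for TEK and -0.096 for KDR. The summed markers of muscle fibres (29769 to 43673 CPM in high and 31859 to 58532 CPM in low IMF pigs), adipocytes (150 to 280 and 115 to 339 CPM, 6 of 6 measured), macrophages (46.4 to 102 and 56.0 to 95.5 CPM, 4 of 4) and fibro-adipogenic cells (365 to 719 and 515 to 758 CPM, 4 of 4) overlapped as well. Although the groups were picked by fat content, the median adipocyte sum was 198 CPM in high and 238 CPM in low IMF pigs (p = 0.721, exact permutation test). The log2FC was positive for 4 of the 6 adipocyte markers (66.7%, beside 48.4% of all genes). LPL had the highest mean of the 6 in both groups (133 CPM in high and 161 CPM in low IMF pigs). The log2FCs of the fibro-adipogenic markers were -0.42 for PDGFRA (unadjusted p = 0.0271, quasi-likelihood test), -0.18 for LUM, -0.069 for DCN and 0.46 for COL1A1. Among hepatocyte markers, which muscle should lack, SERPINA1 was at 0 in all pigs and the others summed to at most 57.8 CPM. The part of these cells in the values of the insulin signalling genes was not tested.

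Across the 12 pigs the 9 genes formed 36 pairs, and the log2 levels of 23 pairs correlated positively and of 13 negatively, with a median Pearson's r of 0.21. An r of at least 0.7 in size was found in 5 pairs (13.9%), beside 2.8% of all pairs of tested genes. After Benjamini-Hochberg adjustment over the 36 pairs, 3 pairs passed, of which 2 joined IRS2 to another gene. The correlations use the counts of each library and not its labels.

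IRS2 followed INSR, its receptor, with r = 0.77 (p = 0.00337, permutation test with 100000 resamples, adjusted p = 0.0437) and Spearman's rho = 0.78 (p = 0.00471, permutation test, adjusted p = 0.0848). Pigs 7 and 8 had the highest and pig 5 the lowest INSR, and pig 12 had high INSR with little IRS2. Within high IMF pigs r was 0.91 (p = 0.0153, exact permutation test, n = 6) and within low IMF pigs 0.66 (p = 0.188, exact permutation test, n = 6). Leaving out pigs 5 and 6, the farthest from the median of INSR, gave r = 0.73 (p = 0.0167, permutation test, adjusted p = 0.301).

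IRS2 also followed AKT2, with r = 0.78 (p = 0.00364, permutation test, adjusted p = 0.0437) and rho = 0.72 (p = 0.0107, permutation test, adjusted p = 0.0958). Since AKT2 nearly separates the groups, the values within groups matter here, and they were 0.94 in high IMF pigs (p = 0.00833, exact permutation test, n = 6) and 0.79 in low IMF pigs (p = 0.0875, exact permutation test, n = 6). Centred on the group means, r was 0.82 (p = 0.00680, permutation within groups, adjusted p = 0.107). Without pigs 7 and 8, which had the most IRS2, it was 0.67 (p = 0.0292, permutation test, adjusted p = 0.321).

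The other pair joined PIK3CA to TBC1D4, with r = 0.78 (p = 0.00292, permutation test, adjusted p = 0.0437) and rho = 0.78 (p = 0.00403, permutation test, adjusted p = 0.0848). Neither gene passed the test between the groups, and r was 0.79 within high IMF pigs, at the threshold in an exact permutation test, and 0.95 within low IMF pigs (p = 0.0292, exact permutation test, n = 6). Pigs 5 and 12 lay low and pig 3 high on both. Without pigs 3 and 12 r was 0.73 (p = 0.0156, permutation test, adjusted p = 0.301). With 10 pigs, r of the 3 pairs was between 0.67 and 0.73 and 0 pairs passed the adjustment. Leaving out single pigs gave 0 to 4 passing pairs, and 0 without any of pigs 2 to 9 or pig 11.

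**Figure D4:**
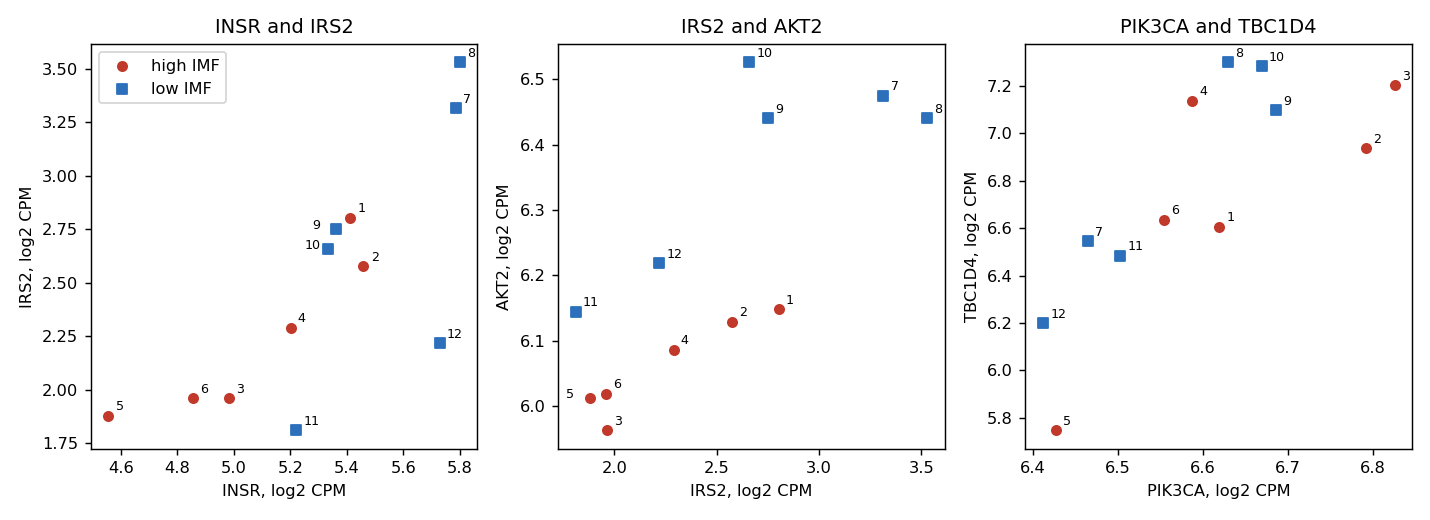
Log2 CPM of INSR and IRS2, of IRS2 and AKT2, and of PIK3CA and TBC1D4 in the 12 numbered pigs (x and y axes), with circles for high and squares for low IMF pigs. Both groups lie along a rising cloud in each panel, and low IMF pigs lie higher on the AKT2 axis at the same IRS2.

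Of the remaining pairs, INSR and GRB14 correlated negatively, with r = -0.71 (p = 0.00937, permutation test, adjusted p = 0.0778) and rho = -0.67 (p = 0.0200, permutation test). IRS1 and AKT2 had r = 0.71 (p = 0.0108, permutation test, adjusted p = 0.0778) but rho = 0.50 (p = 0.104, permutation test), and INSR and AKT2 had r = 0.69 (p = 0.0131, permutation test, adjusted p = 0.0784), which was 0.39 once the group means were removed. GRB14 correlated negatively with INSR, IRS1, IRS2 and AKT2, between -0.71 and -0.49. PIK3R1 had no r above 0.38 in size with any of the other 8 genes.

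**Figure D5:**
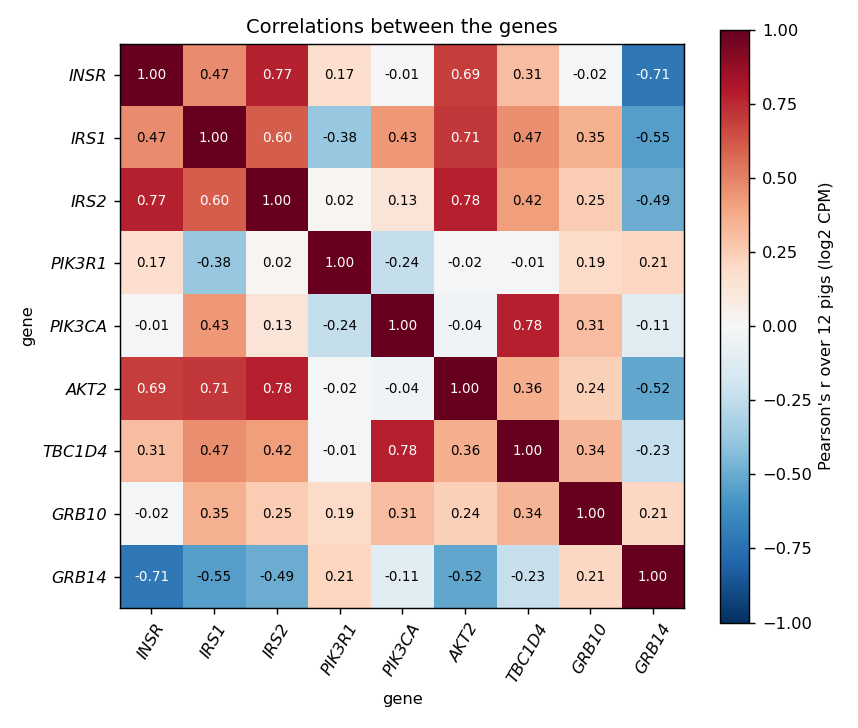
Pearson's r of log2 CPM over 12 pigs for each pair of genes (both axes), red for positive and blue for negative. INSR, IRS1, IRS2 and AKT2 form a positive block from 0.47 to 0.78, GRB14 is negative with all 4, and PIK3CA pairs with TBC1D4 at 0.78.

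The genes also differed in how much of the transcriptome varied with them. Of all other tested genes, 6.69% had an r of at least 0.7 in size with INSR, 5.82% with IRS2, 5.51% with AKT2 and 3.88% with IRS1, whereas it was 2.64% for GRB14, 1.33% for TBC1D4, 1.16% for GRB10, 0.975% for PIK3CA and 0.477% for PIK3R1. The receptor, its substrates and AKT2 thus varied with larger sets of genes than did the subunits of PI3K.

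The genes most like each of the 9 across pigs were ranked by r after removal of the group means, among 5651 named genes with a mean log2 CPM of at least 3, as a description without a test. For INSR they were WIPI2 (0.95), DUSP16 (0.95) and TOM1L2 (0.93), and for AKT2 SYNPO (0.96), NFIX (0.90) and STRN4 (0.90). SYNPO (0.91) was also among those of IRS2, with MIEF2 (0.91) and TFEB (0.91). For IRS1 they were RANBP3 (0.90), PRCC (0.89) and ZEB1 (0.87). PIK3CA was followed by POGZ (0.92), E2F3 (0.89) and KDM5B (0.88), and TBC1D4 by FHIP2A (0.92), WDR44 (0.90) and RAB35 (0.89). The closest to GRB10 were MRPL3 (0.92), ZMYM4 (0.90) and RBM6 (0.86). Those of PIK3R1, POLR1B (0.85), PDIA4 (0.83) and ADAM9 (0.81), and of GRB14, KLHL31 (0.85), CAVIN4 (0.84) and YPEL5 (0.83), were less close.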

How the data were processed

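Stranded libraries of polyadenylated RNA from 12 pigs were sequenced in pairs of reads. Per the labels and methods, the authors processed them with FastQC, Trimmomatic, HISAT2 (genome Sscrofa11.1), StringTie and HTSeq, and deposited raw counts per Ensembl gene and pig. The annotation release, strand option and handling of multi-mapping reads are not given in the sources used here, so overlapping or antisense genes are uncertain. The study's own test was DESeq2.

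From the deposited counts, genes kept by filterByExpr were scaled by TMM factors and tested by quasi-likelihood in edgeR 4.0.16 (R 4.3.3). Group was the sole term, and p-values were adjusted by Benjamini-Hochberg over 14262 genes. A prior count of 2 entered log2 CPM. Single genes and ratios (pseudocount 0.5) were also compared by exact two-sided permutation over all arrangements of the pigs. Correlations used 100000 permutations (Python 3.11.15, scipy 1.17.1). Gene names came from the gene name table, which paired 14857 genes with a symbol, and positions, exon lengths and upstream windows from RefSeq on Sscrofa11.1, matched by symbol.

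Alternatives were DESeq2's size factors and Wald test (DESeq2 1.42.0), upper-quartile normalization, limma-voom (limma 3.58.1), other count filters, a robust dispersion, labelled sex or age as a covariate, other pseudocounts, and pigs left out. The quasi-likelihood test of edgeR was checked on simulated counts, and the permutation tests on small sets of made-up values. DESeq2's Wald test and limma-voom were not checked in this way. Named were all members, pathway genes with an unadjusted p at or under 0.05 or among the 3 largest log2FCs in size, the 3 genes most correlated with each member, and a list of FOXO and glucocorticoid receptor targets. SLC2A4, SERPINA1 and the endothelial and fibro-adipogenic markers were named after their values were seen, and 1 gene of this rule is not reported here. The members and lists were chosen with earlier results of these data known. Each pig is a separate animal. Which pigs shared slaughter days or lanes was not used here.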

Additional observations from a re-analysis of the deposited data

How the results depend on the processing

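The count of genes called depended most on the test. With DESeq2's Wald test, 95 of the genes tested and 101 of all genes with a count passed at an adjusted p of 0.05, and 1 of the 9 insulin signalling genes, AKT2, did so in each. The other tests, normalizations, filters and covariates called 0 of the 9. The labelled sex used as a covariate went against the Y chromosome counts in 6 pigs, so it could not account for sex. Leaving out single pigs gave 0 to 1 adjusted calls over all genes (1 without pig 5 or pig 10) and 0 among the 9. Unadjusted calls then ran from 1046 to 2060 over all genes, from 2 to 5 among the 9 (5 without pig 11, 4 without pig 12) and from 5 to 13 among pathway genes (5 without pig 6 or pig 8, 6 without pig 3).

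Without the 6 pigs whose Y chromosome counts went against their labels, unadjusted calls were 607 over all genes, 1 among the 9 (TBC1D4) and 0 among pathway genes, with fewer pigs tested. The log2FC turned to -0.41 for IRS2, -0.49 for TBC1D4 and -0.15 for GRB10, and the difference in the ratio of IRS1 to IRS2 to 0.43. With single pigs left out, log2FCs ran from -0.012 to 0.22 for PIK3R1 (below 0 without pig 11), from -0.046 to 0.21 for TBC1D4 (below 0 without pig 5 or pig 10) and from -0.024 to 0.17 for GRB10 (below 0 without pig 7). The ratio difference ran from -0.26 to 0.012 for IRS1 to IRS2 (above 0 without pig 8) and from 0.45 to 0.77 for GRB10 to GRB14, whose p passed without pig 2 (0.0411) or pig 11 (0.0260), exact permutation tests. Of the correlated pairs, 0 passed with Spearman's rho, 0 with values centred on group means, 0 without the 2 pigs farthest from the median, and 0 to 4 without single pigs (0 without any of pigs 2 to 9 or pig 11, 1 without pig 12). These causes were not tested.

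No paired analysis was possible because pig numbers run through both groups and pair no animals. Depth was lowest for GRB14, with as few as 82 counts in a pig.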

Other observations

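Targets of the FOXO factors and of the glucocorticoid receptor were listed as genes that respond when insulin signalling is low or glucocorticoids are high. Of the 12 listed, 10 were tested, and the log2FC (low over high IMF) was positive for 9 of them, beside 48.4% of all genes, with a median of 0.46. By unadjusted p, 4 of the 10 (40.0%) passed 0.05 and were higher in low IMF pigs, beside 5.38% of all genes, and 0 passed after adjustment with edgeR's quasi-likelihood test. The list was chosen with earlier results of these data known, so such shares describe it and are no independent test. How far its genes varied together was not tested. FBXO32, a ubiquitin ligase of muscle protein breakdown, was 366 ± 120.2 CPM in high and 552 ± 144 CPM in low IMF pigs (SD, n = 6 each), a log2FC of 0.59 (SE 0.24). TRIM63, the other such ligase, was 434 ± 60.5 and 621 ± 245 CPM (SD, n = 6 each), a log2FC of 0.52 (SE 0.21). The transcription factors KLF15 (0.66, SE 0.28) and ZBTB16 (0.54, SE 0.23) were the other 2. CITED2 went the other way, with the log2FC of largest size among the 10, -0.76 (SE 0.37, unadjusted p = 0.0570, edgeR's quasi-likelihood test). PDK4, FKBP5, KLF9, PER1 and SESN1 did not pass either, with log2FCs from 0.088 for SESN1 to 0.49 for PDK4. Without the 6 pigs whose Y chromosome counts went against their labels, a setting added for this list after the data were seen, 3 of the 10 had an unadjusted p under 0.05, beside 4.05% of all genes, and the median log2FC was 0.42, beside -0.010 for all genes. In that setting the log2FC was positive for 7 of the 10 (70%), beside 48.5% of all genes. With all pigs the groups overlapped for each of the 4 that passed, and their link to the insulin signalling genes was not tested.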
